A study of Homo sapiens with 8 samples.

Results

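The antisense transcripts described here are the 119 named natural antisense genes with a measurable level in MDA-MB-231 cells, each set beside the gene on which it is named. They were taken by rule from the 22109 genes with 1 symbol on the array: a symbol ending in -AS1, -AS2 or -AS3 and a mean log2 value over all 8 arrays of 3 or more, leaving out EPB41L4A-AS1. The array measured 740 such antisense genes, so 620 lay under the threshold and are used only for comparison. For 108 of the 119 the sense gene, which is the gene named before -AS, was measured too, and 80 of these pairs had a sense gene with a mean of 3 or more. The mean level chose the members, so their levels are a description and carry no test. The rule did not use the differences between groups directly. Its mean includes the treated arrays, however, so a transcript that is high only after treatment can pass through them.

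MDA-MB-231 is a triple-negative human breast cancer line with a mesenchymal character. Its total RNA was profiled on 8 whole-transcript arrays (Affymetrix Human Gene 2.1 ST), 1 per sample, of which 3 held untreated cells (control), 3 a low and 2 a high treatment group. By the titles and the treatment protocol, the low and high groups had a crude ethanol extract of wild yam root (Dioscorea villosa) at 15 and 30 µg/mL for 24 h, both described as sublethal. Other fields of the labels contradict this: there the agent of the low group is a Boswellia serrata extract (128 µg/mL) and that of the high group 3-O-acetyl-β-boswellic acid (46 µg/mL), so low and high are used here as names of groups only, and they need not be doses of 1 agent. The labels do not say that the samples of a group were separate cultures, so p-values measure the spread between these samples, which may be technical. Low and high were both set against the same 3 controls.

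Natural antisense transcripts are read from the strand opposite a gene. Many start beside the promoter of the sense gene and run away from it (divergent, or head-to-head, pairs); others start inside the sense gene and run back through its exons or introns. Some are known to act on the sense gene in cis, by chromatin, by pairing with its RNA or by the act of transcription itself, others act elsewhere in the cell, and for many no function is known.

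All values are log2 expression values as deposited, and a difference of 1 is a 2-fold change. The mesenchymal markers VIM (8.89) and CD44 (8.37) were high on average, and the hormone receptors ESR1 (1.86) and PGR (1.35) were low. Of 7 luminal epithelial markers 4 reached a mean of 3 (KRT8, CDH1, EPCAM and KRT19), with EPCAM at 4.92 and CDH1 at 3.10, and none of the 6 lymphocyte or 3 measured endothelial markers did. Of 4 measured fibroblast markers COL1A1 reached it, and of 4 monocyte markers CD68. The 75th percentile of the log2 value over genes ran from 4.54 to 4.94, lowest on control 3, low 3 and high 2 within their groups. Low 3 and high 2 (both 4.54) lay below the other arrays, while control 3 (4.73) lay close to high 1 (4.80). Results are given without control 3, low 3 and high 2 where they matter. Arrays of a group correlated at 0.972 to 0.994 over all genes and at 0.858 to 0.967 over the 119 antisense transcripts. The table holds no background measure, so whether the dimmest transcripts are present at all could not be judged.

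The antisense transcripts were dim as a set. Their mean log2 value ran from 3.01 to 6.61 with a median of 3.58; 87 lay under 4 and 10 at 5 or more. The 6 with the highest means were HIF1A-AS2, antisense to the hypoxia factor HIF1A (6.61), HMGA2-AS1 beside the chromatin protein gene HMGA2 (6.49), ARHGAP5-AS1 (6.09), HNRNPU-AS1 beside a nuclear RNA-binding protein (6.07), TLR8-AS1 beside a toll-like receptor for single-stranded RNA (5.55) and FGD5-AS1 (5.40). These are levels of different probe sets and cannot be ordered as amounts of RNA. TMEM44-AS1 (3.01), ATP2B1-AS1 (3.02) and PTOV1-AS1 (3.04) lay just inside the threshold, and MZF1-AS1 (2.99), SP2-AS1 (2.98) and MNX1-AS1 (2.97) just outside it. In 25 of the 119 at least 1 group mean lay under 3, and such a transcript can owe its place to the groups where it is high. Among those called below, this holds for NPPA-AS1 and IL6-AS1, low in the controls, and for RGMB-AS1, low in the high group.

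In the low group 3 antisense transcripts rose (NPPA-AS1, TLR8-AS1 and IL6-AS1) and 2 fell (PCNA-AS1 and TMPO-AS1) against the controls, by limma over all genes with Benjamini-Hochberg adjustment at an adjusted p under 0.05. These 5 are 4.20% of 119, beside 3.00% of all 22109 genes (1.19% higher and 1.81% lower) and 6.08% of the 10268 genes with a mean of 3 or more (2.42% higher and 3.66% lower). NPPA-AS1 and IL6-AS1 had control means of 2.55 and 2.66, so they are among the 119 only through the treated arrays. In the high group TLR8-AS1 rose and PCNA-AS1, TMPO-AS1 and RGMB-AS1 fell, 3.36% of 119, beside 0.814% of all genes (0.425% higher and 0.389% lower) and 1.59% of genes with a mean of 3 or more (0.838% higher and 0.750% lower). These shares rest on 5 and 4 transcripts, and the high-group count fell to 0 when any of 5 arrays (control 1, control 2, low 1, high 1 or high 2) was left out, and to 1 without low 2. Each fit without a high array leaves 1 array in that group, which is then taken to vary like the other groups. Without control 3 it rose to 8, and with only the control and high arrays in the fit it was 0. In the low group the count ran from 3 to 6 over single arrays left out, with 3 without low 2. With the replicate number as a block, 8 were called in the low group, 5 higher and 3 lower, the added ones being KMT2E-AS1, PSMD6-AS2 and MAPKAPK5-AS1; over the control and low arrays alone the block gave the same 5 as the fit without it. Without control 3, low 3 and high 2 the counts were 12 in the low group and 13 in the high group, and they held all transcripts called over the 8 arrays, but the count of 13 rests on high 1 alone, with the spread taken from the 2 controls and 2 low arrays left. Quantile normalization gave 7 higher and 4 lower in the low group and 3 higher and 3 lower in the high group. Counts from these alternative fits are not set beside the share of all genes called in the same fit.

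Most antisense transcripts moved little. In 95 of 119 the low-group difference was under 0.5 in size, and in 94 of 119 the high-group difference was. The median difference was -0.07 in the low group, beside -0.04 over all genes and -0.07 over genes with a mean of 3 or more. The high group gave -0.18, beside -0.12 and -0.22. At an unadjusted p under 0.05, 12 (10.1%) were higher and 15 (12.6%) lower in the low group, beside 5.38% and 8.77% of all genes and 9.34% and 15.4% of genes with a mean of 3 or more. The counts were 4 (3.36%) higher and 20 (16.8%) lower in the high group, beside 3.03% and 11.4% of all genes and 4.54% and 19.2% of genes with a mean of 3 or more, so these shares lay near those of other genes of like level. High against low gave no call by limma among the 119, with 3 (2.52%) higher and 9 (7.56%) lower at an unadjusted p under 0.05, beside 2.56% and 6.10% of all genes and 3.13% and 9.72% of genes with a mean of 3 or more. Over all genes that comparison gave 1 call, 0.00452%.

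**Figure D1:**
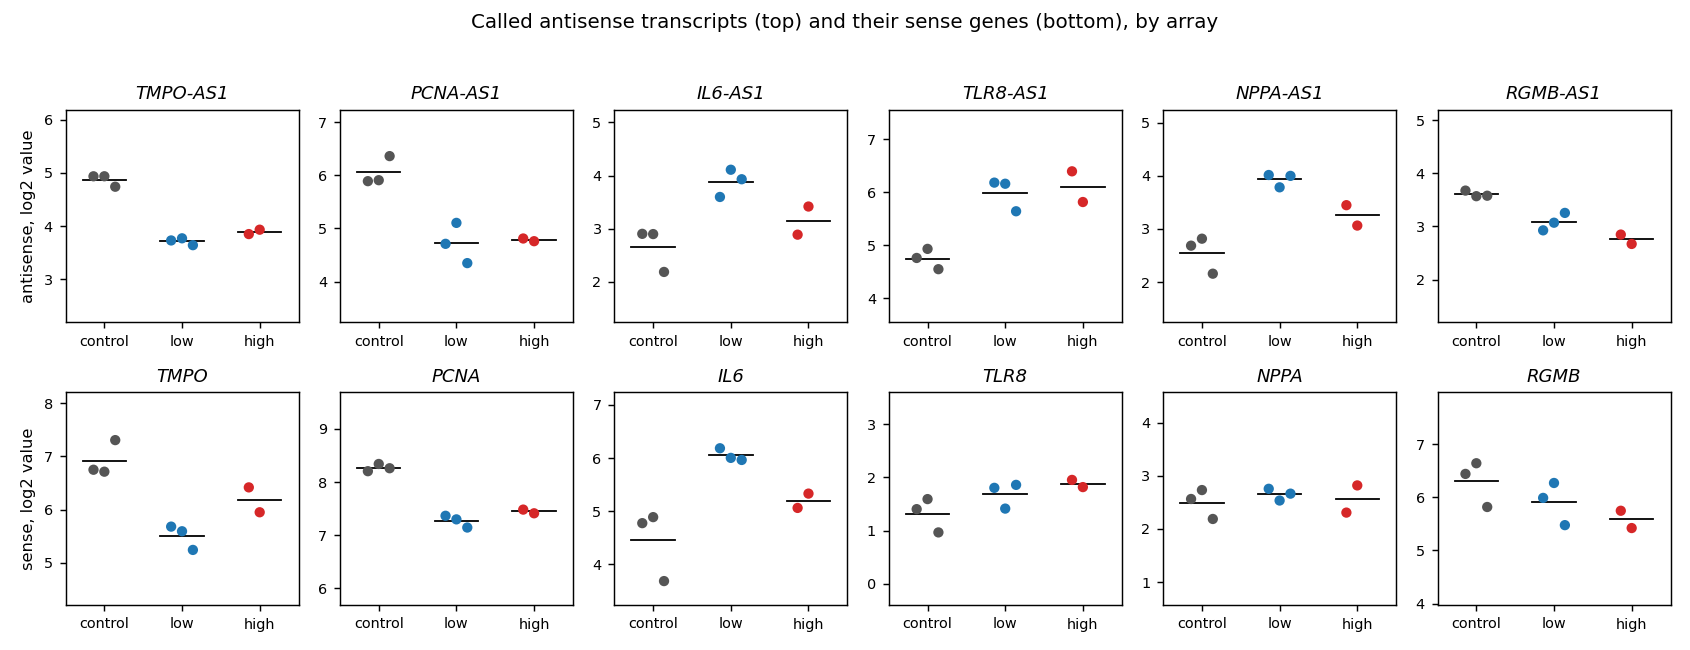
Log2 expression value on each array (points) and group mean (lines) for the 6 antisense transcripts called against control in either group (top) and their sense genes (bottom), with control in grey, low in blue and high in red. Each panel spans the same log2 range around its own mean, and levels of different panels cannot be compared. TMPO-AS1, PCNA-AS1 and IL6-AS1 moved in the direction of their sense gene in the low group, and those sense genes were called there too. NPPA, TLR8 and RGMB also had the sign of their antisense transcript there (0.16, 0.37 and -0.39), but their differences did not pass.

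Antisense transcripts of dividing-cell genes came first among the falls. TMPO encodes thymopoietin (LAP2), a lamina-associated protein of the nuclear envelope, and PCNA the sliding clamp of DNA replication; both are proliferation genes. TMPO-AS1 had log2 values of 4.94, 4.94 and 4.74 in the controls, 3.73, 3.77 and 3.64 in the low group and 3.85 and 3.93 in the high group. Every treated array lay below every control. It fell by 1.16 ± 0.14 (SE) in the low group, 2.23-fold lower (limma adjusted p = 0.00255), and by 0.98 ± 0.16 in the high group (adjusted p = 0.0215). TMPO itself had 6.75, 6.71 and 7.31 in the controls, 5.68, 5.59 and 5.24 in the low group and 6.42 and 5.95 in the high group. It fell by 1.42 ± 0.21 in the low group (limma adjusted p = 0.00544), while its high-group difference of -0.74 ± 0.24 did not pass (adjusted p = 0.191). The groups of TMPO did not overlap in either group.

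PCNA-AS1 had log2 values of 5.89, 5.91 and 6.36 in the controls, 4.71, 5.11 and 4.35 in the low group and 4.81 and 4.76 in the high group. It had the largest fall of the 119 in both groups, 1.33 ± 0.21 in the low group, or 2.52-fold lower (limma adjusted p = 0.00721), and 1.27 ± 0.24 in the high group (adjusted p = 0.0373). PCNA had 8.21, 8.34 and 8.26 in the controls, 7.37, 7.30 and 7.14 in the low group and 7.48 and 7.41 in the high group. It fell by 1.00 ± 0.14 in the low group (limma adjusted p = 0.00466) and by 0.82 ± 0.16 in the high group (adjusted p = 0.0444), and no treated array of either transcript reached a control. The log ratio of antisense to sense, tested over all 677 measured pairs, moved by 0.26 ± 0.25 for TMPO (limma adjusted p = 0.763) and by -0.33 ± 0.23 for PCNA (adjusted p = 0.622) in the low group, so that an unequal change was not detected in either pair. Without control 3, low 3 and high 2 the low-group falls were 1.19 for TMPO-AS1 and 0.99 for PCNA-AS1, both still called. The high-group calls were lost in 8 of 18 alternative settings for TMPO-AS1 and in 7 of 18 for PCNA-AS1, among them the fit with only the groups compared (adjusted p = 0.0836 and 0.0710). Bulk RNA cannot tell a lower level per cell from fewer cells that hold a transcript.

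The sequences upstream of both pairs are shown because the members of each pair fell together. They are the 250 bases before the RefSeq start (GRCh38.p14), each on its own strand. TMPO-AS1 starts 653 bases downstream of the start of TMPO on the opposite strand, a head-to-head pair whose 5′ ends overlap, and its window (chr12:98516227-98516476, minus strand) lies inside TMPO; that of TMPO is chr12:98515323-98515572 (plus strand). PCNA-AS1 starts inside PCNA, 7036 bases from the 1 start RefSeq's table gives for that gene; its window is chr20:5119336-5119585 (plus strand) and that of PCNA is chr20:5126623-5126872 (minus strand). Capitals mark the searched motifs on either strand: the CCAAT box, which NF-Y binds, and GCGCGAA, an E2F-type site.
TMPO-AS1: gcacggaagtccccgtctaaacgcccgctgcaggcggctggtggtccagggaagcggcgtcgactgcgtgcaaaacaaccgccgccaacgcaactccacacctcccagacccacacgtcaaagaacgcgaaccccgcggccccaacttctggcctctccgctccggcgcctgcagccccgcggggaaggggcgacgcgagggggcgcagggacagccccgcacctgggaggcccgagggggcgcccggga
TMPO: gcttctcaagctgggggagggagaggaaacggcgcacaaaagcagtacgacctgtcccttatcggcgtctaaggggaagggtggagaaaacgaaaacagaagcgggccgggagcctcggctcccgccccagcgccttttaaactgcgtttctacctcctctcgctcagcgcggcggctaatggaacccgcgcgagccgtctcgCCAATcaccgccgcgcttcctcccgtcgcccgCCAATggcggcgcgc
PCNA-AS1: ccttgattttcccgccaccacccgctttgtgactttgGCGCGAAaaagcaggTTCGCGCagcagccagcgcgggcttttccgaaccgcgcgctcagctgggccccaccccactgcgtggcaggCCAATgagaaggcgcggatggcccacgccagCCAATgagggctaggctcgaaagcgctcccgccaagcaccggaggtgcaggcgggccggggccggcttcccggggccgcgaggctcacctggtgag
PCNA: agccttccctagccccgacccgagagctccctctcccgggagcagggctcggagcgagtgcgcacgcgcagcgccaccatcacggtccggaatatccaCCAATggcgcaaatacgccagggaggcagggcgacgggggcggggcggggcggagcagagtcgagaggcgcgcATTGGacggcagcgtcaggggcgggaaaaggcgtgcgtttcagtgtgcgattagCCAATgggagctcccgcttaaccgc
The window of PCNA-AS1 held 2 matches to GCGCGAA, 1 on each strand, and 2 CCAAT boxes; TMPO held 2 CCAAT boxes and PCNA 3. Of 27303 promoters of the same length, 1.93% held GCGCGAA and 33.0% held CCAAT. TMPO-AS1 held none of the searched motifs. A match describes these letters and is not a bound site.

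The other antisense transcripts of division and repair genes did not pass the test. They were antisense to OIP5, MCM3AP, NUMA1, MDC1, TONSL, WEE2 and PAXIP1, 7 of the 9 in that group, and their low-group differences ran from -0.54 (WEE2-AS1) to 0.57 (MCM3AP-AS1). The probe rows of WEE2-AS1 disagreed in sign in the low group, -0.54 in the row used and 0.11 in the other. Among the sense genes of these 9, TMPO, PCNA and OIP5 fell in the low group and PCNA in the high group. On wider lists, 42 of 45 measured cell cycle and mitosis genes fell in the low group and 1 in the high group, and of 41 replication and repair genes 25 fell in the low group and 13 in the high group; none rose. Over all genes 1.81% were called lower in the low group and 0.389% in the high group. Genes of these lists were known from earlier results of these data, so the list counts carry no test.

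OIP5 showed the opposite pattern to TMPO and PCNA within its pair. OIP5 helps to load the centromeric histone CENP-A, and OIP5-AS1 (cyrano) is a conserved cytoplasmic RNA that starts outside the OIP5 gene. OIP5-AS1 had log2 values of 3.69, 3.60 and 4.07 in the controls, 3.91, 3.92 and 3.20 in the low group and 3.97 and 3.31 in the high group, and its groups overlapped. Its low-group difference was -0.11 ± 0.24 (limma adjusted p = 0.913). OIP5 had 3.75, 3.84 and 3.84 in the controls, 2.40, 2.80 and 2.34 in the low group and 3.53 and 3.09 in the high group. It fell by 1.29 ± 0.18 in the low group (limma adjusted p = 0.00378). The log ratio of OIP5-AS1 to OIP5 rose by 1.19 ± 0.23 in the low group (limma adjusted p = 0.0158), from -0.06, -0.24 and 0.23 in the controls to 1.51, 1.12 and 0.86, so here the pair changed unequally.

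Of the 3 antisense transcripts that rose in the low group, TLR8-AS1 and IL6-AS1 are antisense to immune genes; the third, NPPA-AS1, rose most and is described after them. IL6 encodes interleukin 6, an inflammatory cytokine under NF-kB control, and TLR8 an endosomal RNA sensor of myeloid cells. IL6-AS1 had log2 values of 2.90, 2.90 and 2.19 in the controls, 3.60, 4.11 and 3.93 in the low group and 2.89 and 3.42 in the high group. Low arrays all lay above the controls, while high 1 lay among them. The rise in the low group was 1.22 ± 0.24, or 2.32-fold (limma adjusted p = 0.0181), and the high-group difference was 0.49 ± 0.26 (adjusted p = 0.422). The low-group call was lost without low 2 (adjusted p = 0.0920), without low 3 (0.0675) and with p-values adjusted over all rows of the table (0.0810); over all 19 settings the adjusted p ran from 0.00175 to 0.0920.

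IL6 had log2 values of 4.78, 4.89 and 3.68 in the controls, 6.19, 6.0 and 5.97 in the low group and 5.06 and 5.33 in the high group. It rose by 1.60 ± 0.28 in the low group (limma adjusted p = 0.0103), and its high-group difference was 0.75 ± 0.31 (adjusted p = 0.295). Control 3 was the lowest array of both transcripts; without control 3, low 3 and high 2 the low-group rise was 0.95 for IL6-AS1 (adjusted p = 0.0372) and 1.26 for IL6 (adjusted p = 0.00600). The log ratio of IL6-AS1 to IL6 moved by -0.39 ± 0.24 (adjusted p = 0.554). On a wider list of NF-kB targets, cytokines and immediate early genes, 21 of 47 measured genes rose in the low group and 14 in the high group, with none lower. Of all genes, 1.19% and 0.425% were called higher in the 2 groups. This list was drawn up with earlier results of these data known, so its counts carry no test.

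IL6 and IL6-AS1 are head-to-head with overlapping 5′ ends, the antisense start lying 420 bases downstream of the IL6 start. Their windows are shown because both members rose together: chr7:22727621-22727870 on the minus strand for IL6-AS1 and chr7:22726950-22727199 on the plus strand for IL6. Capitals mark the CCAAT box, the cyclic AMP response element core TGACGTC, which ATF and CREB factors bind, and the NRF1 core GCATGCG.
IL6-AS1: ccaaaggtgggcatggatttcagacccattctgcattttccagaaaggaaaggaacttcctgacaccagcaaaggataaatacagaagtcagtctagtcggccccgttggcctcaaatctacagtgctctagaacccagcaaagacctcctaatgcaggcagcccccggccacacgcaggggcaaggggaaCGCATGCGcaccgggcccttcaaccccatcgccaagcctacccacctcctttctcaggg
IL6: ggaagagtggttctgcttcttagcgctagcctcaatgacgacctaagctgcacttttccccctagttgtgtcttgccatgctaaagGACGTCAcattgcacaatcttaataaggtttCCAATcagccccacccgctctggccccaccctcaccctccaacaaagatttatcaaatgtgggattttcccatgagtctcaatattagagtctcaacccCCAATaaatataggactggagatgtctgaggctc
The IL6 window held 2 CCAAT boxes and 1 match to TGACGTC, which 3.29% of all promoters hold. The IL6-AS1 window held GCATGCG on both strands of 1 overlapping stretch, a motif found in 3.57% of promoters. GC content was 47.6% for IL6 and 56.0% for IL6-AS1, beside a median of 58.0% over all promoters.

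TLR8-AS1 had log2 values of 4.76, 4.93 and 4.55 in the controls, 6.18, 6.16 and 5.64 in the low group and 6.39 and 5.81 in the high group. It was the one antisense transcript that rose in both groups, by 1.25 ± 0.21 (2.37-fold, limma adjusted p = 0.00929) and 1.36 ± 0.23 (2.56-fold, adjusted p = 0.0277). Every treated array lay above every control. TLR8 had 1.40, 1.59 and 0.96 in the controls, 1.80, 1.41 and 1.86 in the low group and 1.95 and 1.82 in the high group, and its differences of 0.37 and 0.57 did not pass (limma adjusted p = 0.444 and 0.269). The log ratio moved by 0.87 ± 0.25 in the low group and did not pass (limma adjusted p = 0.102), so an unequal change within the pair was not established. TLR8 had a mean of 1.60, too low to judge a change in it. The monocyte markers, whose cells are known for TLR8, had a mean level over 4 markers of 3.48 to 3.79 per array in the controls, 3.68 to 3.98 in the low group and 3.65 to 3.72 in the high group, with CD68 as the one marker at a mean of 3 or more; their part in the result was not tested. The low-group call was lost without low 2 (adjusted p = 0.0539) and the high-group call in 8 of 18 settings.

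Beside these, MAP3K14-AS1 and HLA-F-AS1, the other antisense transcripts of immune genes, differed by 0.23 and 0.30 in the low group without passing. MAP3K14 encodes the NF-kB-inducing kinase and HLA-F a non-classical class I molecule. The HLA-F-AS1 row had the same values as other rows of the table, as had those of DDX39B-AS1, EHMT2-AS1 and MDC1-AS1.

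NPPA-AS1, with the largest rise of the 119 in the low group, rose while its sense gene differed little. NPPA encodes atrial natriuretic peptide, a heart hormone. NPPA-AS1 had log2 values of 2.69, 2.82 and 2.16 in the controls, 4.02, 3.78 and 4.0 in the low group and 3.45 and 3.06 in the high group, with every treated array above every control. It rose by 1.38 ± 0.20 in the low group, or 2.60-fold (limma adjusted p = 0.00473), and differed by 0.70 ± 0.22 in the high group (adjusted p = 0.186). NPPA had 2.56, 2.73 and 2.19 in the controls, 2.75, 2.53 and 2.66 in the low group and 2.31 and 2.82 in the high group, with overlapping groups and a low-group difference of 0.16 ± 0.19 (limma adjusted p = 0.814). The log ratio rose by 1.22 ± 0.24 in the low group (limma adjusted p = 0.0158), from 0.12, 0.09 and -0.03 to 1.26, 1.25 and 1.34. The mean of NPPA was 2.57, under the threshold of 3, so a change in it could be missed. The ratio here mostly restates the rise of NPPA-AS1. The NPPA-AS1 call in the low group held in all 19 settings run, with a difference of 1.15 to 1.51.

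RGMB-AS1 was called in the high group alone. RGMB is a co-receptor for bone morphogenetic proteins. RGMB-AS1 had log2 values of 3.67, 3.57 and 3.58 in the controls, 2.93, 3.07 and 3.25 in the low group and 2.85 and 2.67 in the high group, all treated arrays below the controls. It fell by 0.85 ± 0.17 in the high group (1.80-fold lower, limma adjusted p = 0.0490), and the low-group difference was -0.52 ± 0.15 (adjusted p = 0.105). The difference between high and low was not called, and the high-group call was lost in 11 of 18 settings. RGMB had 6.44, 6.64 and 5.82 in the controls, 5.99, 6.27 and 5.48 in the low group and 5.75 and 5.42 in the high group, with differences of -0.39 and -0.72 that did not pass. Both high arrays of RGMB lay below its controls. The log ratio of the pair moved by -0.13 ± 0.31 in the high group (limma adjusted p = 0.892), so an unequal change was not detected.

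Of the 108 sense genes, 5 rose (IL6, STARD4, JMJD1C, ATP2B1 and NAV2) and 4 fell (TMPO, PCNA, OIP5 and OTUD6B) in the low group, 8.33% in all, beside 3.00% of all genes, 6.08% of genes with a mean of 3 or more and 4.20% of the antisense transcripts. The order was the other way in the high group, with 1 sense gene called (0.926%), beside 0.814% of all genes and 3.36% of the antisense transcripts. The differences between these shares were not tested. Both members of a pair were called in 3 of the 108 pairs (IL6, PCNA and TMPO), the antisense alone in 2 (NPPA-AS1 and TLR8-AS1), the sense gene alone in 6 and neither in 97. In the high group both were called in the PCNA pair, the antisense alone in the pairs of TMPO, TLR8 and RGMB, and no sense gene alone. An unequal change was not established in these 3 pairs. Their high-group log ratios moved by -0.24 for TMPO, 0.79 for TLR8 and -0.13 for RGMB (limma adjusted p = 0.796, 0.281 and 0.892).

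STARD4, a cholesterol transfer protein and a sterol-regulated gene, was the sense gene that rose most without a call of its antisense. STARD4 had log2 values of 5.89, 5.93 and 5.76 in the controls, 6.95, 6.99 and 6.76 in the low group and 6.85 and 6.47 in the high group. It rose by 1.04 ± 0.16 in the low group (limma adjusted p = 0.00612). STARD4-AS1 had 3.90, 3.78 and 3.66 in the controls, 3.84, 3.77 and 3.78 in the low group and 3.93 and 3.86 in the high group. All 8 values lay within a narrow band and its low-group difference was 0.02 ± 0.14 (limma adjusted p = 0.979). The log ratio fell by 1.02 ± 0.20 in the low group (limma adjusted p = 0.0168), and its high-group difference was -0.68 ± 0.23 (adjusted p = 0.243). On a wider list of sterol, stress and antioxidant genes, 19 of 40 measured genes rose in the low group and 11 in the high group, with none lower. The shares over all genes were 1.19% and 0.425% higher. Earlier results of these data were known when this list was drawn up too, so its counts carry no test.

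The STARD4 pair is shown as the contrast to TMPO and IL6: it too is head-to-head with overlapping 5′ ends, the antisense start lying 309 bases downstream of the sense start. The windows are chr5:111511976-111512225 on the plus strand for STARD4-AS1 and chr5:111512536-111512785 on the minus strand for STARD4, with CCAAT in capitals.
STARD4-AS1: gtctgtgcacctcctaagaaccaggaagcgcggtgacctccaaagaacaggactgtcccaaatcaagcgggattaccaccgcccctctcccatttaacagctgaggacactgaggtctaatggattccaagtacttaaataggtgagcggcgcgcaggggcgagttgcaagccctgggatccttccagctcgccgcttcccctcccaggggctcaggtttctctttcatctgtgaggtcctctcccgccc
STARD4: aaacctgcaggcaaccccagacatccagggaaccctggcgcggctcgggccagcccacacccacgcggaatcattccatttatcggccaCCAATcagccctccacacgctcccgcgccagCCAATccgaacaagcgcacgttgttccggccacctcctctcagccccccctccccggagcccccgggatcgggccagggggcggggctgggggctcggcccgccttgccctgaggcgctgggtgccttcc
STARD4 held 2 CCAAT boxes, and STARD4-AS1 held none of the searched motifs. NPPA-AS1, TLR8-AS1 and RGMB-AS1 are named without a sequence.

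Among the other sense genes called in the low group, the log ratio within the pair was not called. ATP2B1, a plasma membrane calcium pump, rose by 0.77 ± 0.16 (limma adjusted p = 0.0226) beside 0.56 ± 0.19 for ATP2B1-AS1 (adjusted p = 0.167). NAV2, a neuron navigator protein, rose by 0.83 ± 0.19 (limma adjusted p = 0.0413) beside 0.35 ± 0.21 for NAV2-AS2. JMJD1C, a histone demethylase family protein, rose by 0.87 ± 0.18 (limma adjusted p = 0.0282) beside 0.06 ± 0.40 for JMJD1C-AS1, which had 4.60 on high 2 and 2.43 to 3.21 on the other arrays. OTUD6B, a deubiquitinase, fell by 0.90 ± 0.19 (limma adjusted p = 0.0259), beside a difference of -0.55 ± 0.18 for OTUD6B-AS1 (adjusted p = 0.161). These 4 calls were lost in 6 or 7 of 19 settings each.

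**Figure D2:**
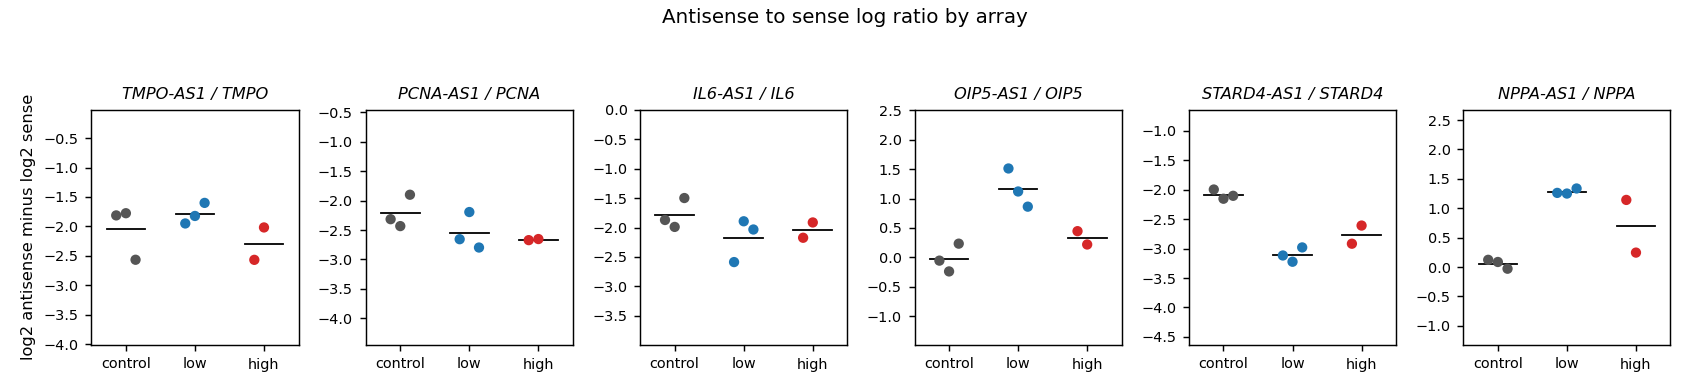
Log2 antisense value minus log2 sense value on each array (points) with group means (lines) for 6 pairs, with control in grey, low in blue and high in red. The ratio overlaps between control and low arrays for TMPO, PCNA and IL6, and does not for OIP5, STARD4 and NPPA; each panel spans the same range, and only changes within a panel can be read.

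The log ratio was called in 9 of all 677 measured pairs in the low group (1.33%; 0.739% higher and 0.591% lower), 3 of them among the 119: NPPA-AS1, OIP5-AS1 and STARD4-AS1. Each of these 3 was kept in 12 of 16 settings and lost without low 1, low 2 or control 2, and the fourth loss was without control 3 for NPPA-AS1 and without control 1 for the others. The count over all pairs was 1 without low 1, 1 without low 2 and 4 without control 2. With the replicate number as a block it was 14, and 25 over the control and low arrays alone. In the high group no ratio was called by limma over 677 pairs (0%), with 86 at an unadjusted p under 0.05 and a lowest adjusted p of 0.0822. The median size of the ratio's change over the 108 pairs was 0.23 in the low group and 0.25 in the high group.

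Position could be read from RefSeq starts for 94 of the 119. In 31 the antisense and sense genes were head-to-head, on opposite strands with starts within 1000 bases; in 30 the antisense started inside the sense gene, in 32 outside it, and in 1 (FAM131B-AS2) both lay on 1 strand in the table. The head-to-head starts lay 54 to 894 bases apart, with a median of 369. In 17 of them the antisense started downstream of the sense start, so that the transcripts overlap at their 5′ ends, and in 14 upstream.

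In the low group, antisense and sense differences ran together in the head-to-head pairs and in those with an inside start, as a description over pairs that share the same 6 arrays, and not in those with an outside start. Pearson's r was 0.81 and Spearman's coefficient 0.79 over 29 head-to-head pairs, 0.72 and 0.63 over 25 pairs with the antisense start inside the sense gene, and 0.01 and 0.02 over 30 pairs with the start outside. The 23 pairs whose position could not be read gave 0.46 and 0.61, and an r of 0.58 in the high group. Differences thus ran together in unplaced pairs as well. Over pairs whose sense gene had a mean of 3 or more, r was 0.81 and Spearman's coefficient 0.78 for 26 head-to-head pairs and 0.82 for both for 18 inside starts, so neither of these classes led. Over all 108 pairs r was 0.58 and Spearman's coefficient 0.53, and 77 (71.3%) had the same sign. Leaving out the TMPO and IL6 pairs took the head-to-head r to 0.65 and Spearman's coefficient to 0.74, and leaving out PCNA took r of the pairs with an inside start to 0.61. In the high group r was 0.60 for head-to-head pairs, 0.53 for inside starts and -0.00 for outside starts. Spearman's coefficient was 0.58, 0.24 and 0.10. Leaving out PCNA took r of the inside starts to 0.32 there. The range of r over settings was wider in the high group, 0.31 to 0.63 for head-to-head pairs and 0.16 to 0.53 for inside starts. The same sign was found in 69.0% of head-to-head, 80.0% of inside and 73.3% of outside pairs, so by sign the outside pairs did not stand apart. The difference between the classes was not tested. Among antisense genes with a mean under 3, r was 0.12 over 104 head-to-head pairs in the low group. Overlap of probes between the members of a pair was not tested.

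**Figure D3:**
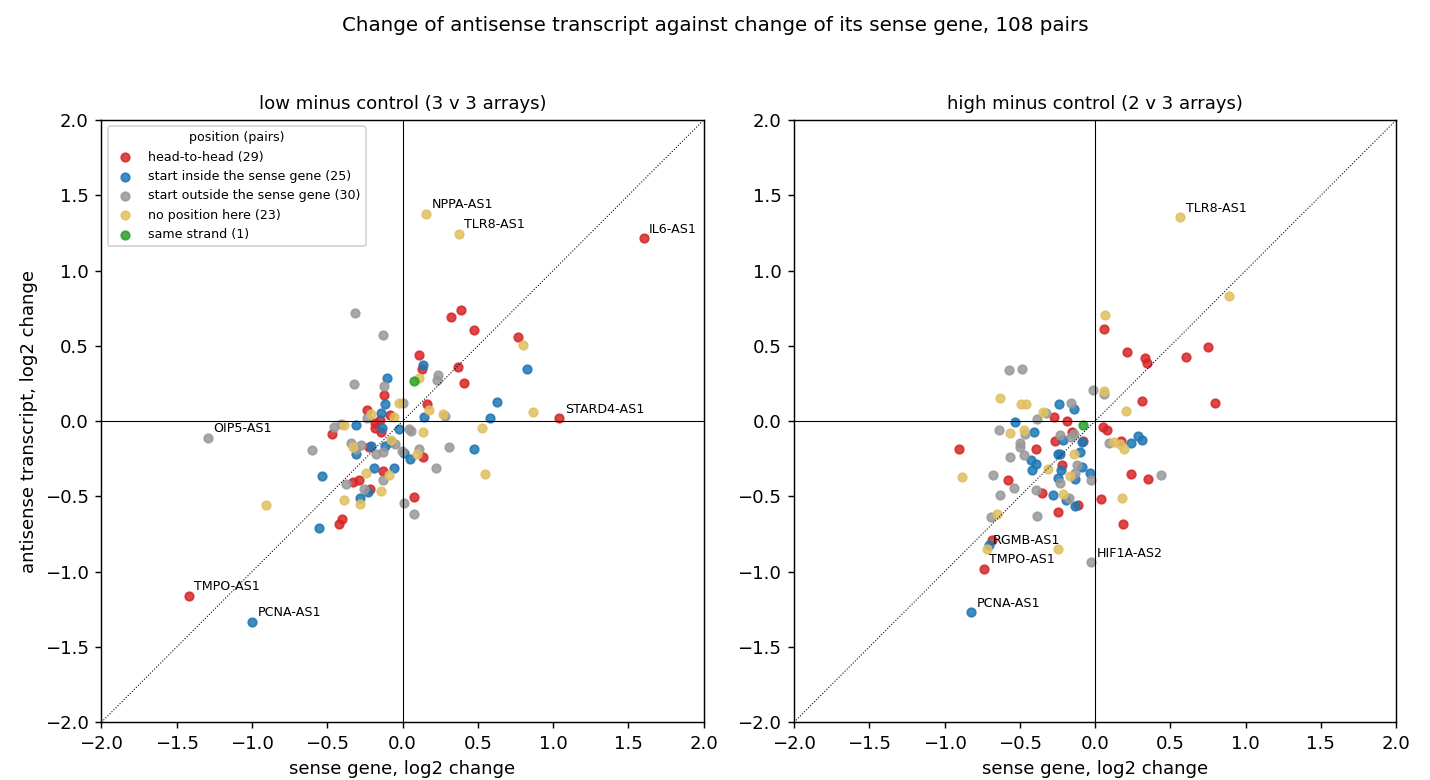
Log2 difference of each antisense transcript (vertical) against that of its sense gene (horizontal) for 108 pairs, low against control on the left and high against control on the right; colour gives the position of the antisense start, the dotted line marks equal change. Both comparisons use the same controls. In the low group the red head-to-head pairs rise from lower left to upper right (r = 0.81), with STARD4 far below the dotted line, while the grey pairs with the start outside the sense gene show no such slope (r = 0.01).

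In several head-to-head pairs that did not pass the test, both members differed with the same sign. KMT2E, a chromatin reader of the MLL family, differed by 0.39 in the low group and KMT2E-AS1, which starts 64 bases upstream of it, by 0.74 ± 0.18 (limma adjusted p = 0.0526). ARHGAP5-AS1 differed by 0.61 ± 0.18 (adjusted p = 0.108) beside 0.47 for ARHGAP5, with starts 605 bases apart. MAPKAPK5-AS1, beside a stress-activated kinase, had a low-group difference of -0.68 ± 0.17 (adjusted p = 0.0656) and a high-group difference of 0.00, beside -0.42 and -0.19 for MAPKAPK5. STARD7-AS1 had -0.65 ± 0.18 in the low group (adjusted p = 0.0961) beside -0.40 for STARD7, a phosphatidylcholine transfer protein. KMT2E-AS1 and STARD7-AS1 are named here after their values were seen.

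Over the promoters of the head-to-head genes the 7 searched motifs were found at the following shares, beside those in 27303 RefSeq promoters. CCAAT was in 16.1% of 31 antisense and 29.0% of 31 sense windows, beside 33.0% of all. TGACGTC was in 16.1% and 25.8%, beside 3.29%. CCGGAAG, an ETS-type site, was in 16.1% and 19.4%, beside 8.82%. GCATGCG was in 6.45% and 3.23%, beside 3.57%, and GCGCGAA in no antisense and 3.23% of sense windows, beside 1.93%. TATAAA was in 6.45% of both, beside 11.1%, and the AP-1 site, searched as TGACTCA on either strand, in none, beside 4.16%. The median GC content was 64.8% and 66.4%, beside 58.0%, so the windows also differed from the rest in base composition. In many pairs part of a window lies in the partner's gene. In some pairs with the antisense start upstream, such as ZNF561-AS1 with starts 250 bases apart, the windows of both genes share bases. A site there counts in both shares, which are then not independent.

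Grouped by the role of the sense gene, no group had more than 2 called antisense transcripts in either group. RNA binding, processing and translation (11 antisense transcripts, none called) had a median low-group difference of -0.33, from -0.47 (NCBP2-AS1) to 0.29 (PCBP3-AS1). Chromatin and transcription factors (17, none called) had a median of 0.03. Cytoskeleton and adhesion (18, none called) had -0.16, from -0.71 for DNMBP-AS1 to 0.71 for DLGAP1-AS1. Membrane traffic, channels and pumps (15) had -0.07 and mitochondrial and metabolic enzymes (7) had -0.05, none called in either. Cytokine and innate immune genes (4) had a median of 0.76 with 2 called, beside 3.00% of all genes and 6.08% of genes with a mean of 3 or more. IL6-AS1, among these 4, had a control mean of 2.66 and met the level rule only through the treated arrays. Its rise therefore helped it into the group. The groups were drawn up after the values were known, and their medians and counts carry no test.

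**Figure D4:**
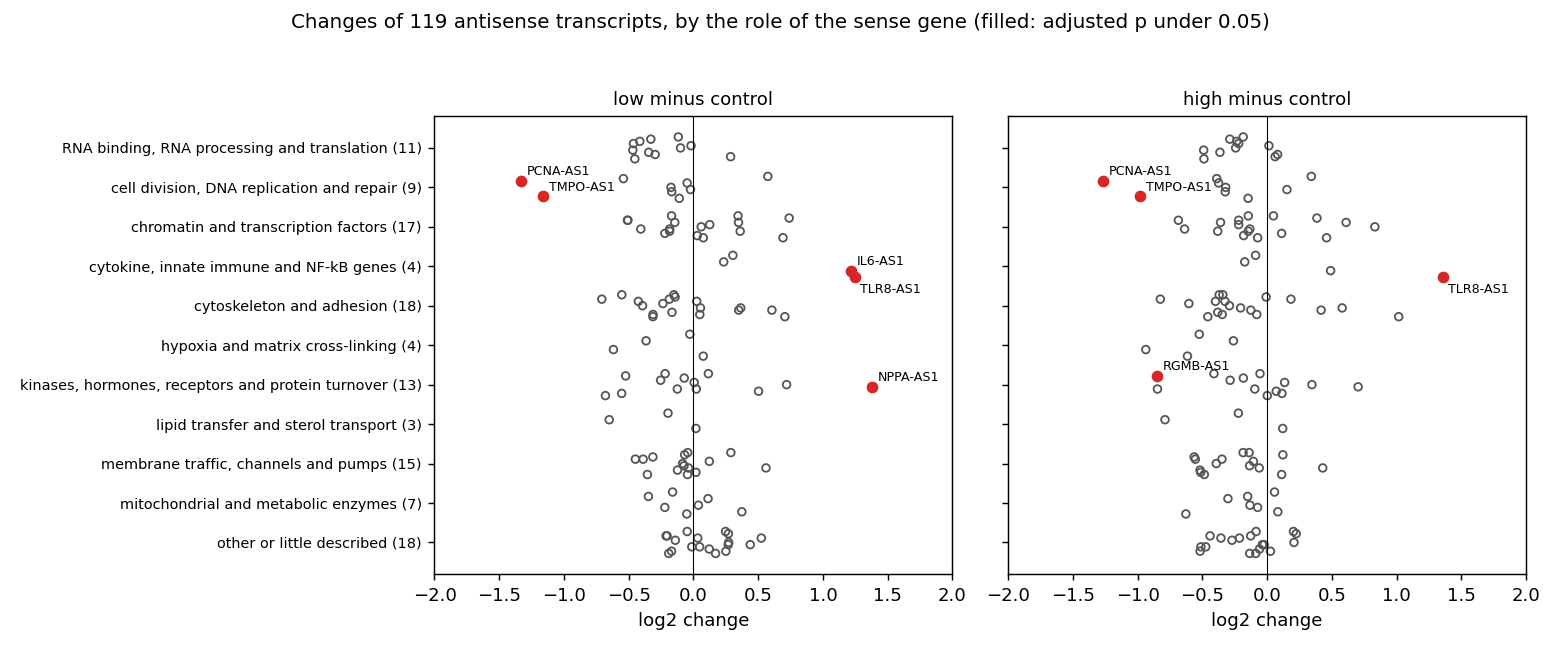
Log2 difference of each of the 119 antisense transcripts, low against control on the left and high against control on the right, by the role of the sense gene (number of transcripts in brackets). Filled red points passed at an adjusted p under 0.05 and are named: 5 in the low group and 4 in the high group, against a spread mostly within 0.5 of zero.

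HIF1A-AS2, which had the highest mean of the 119 and is antisense to the 3′ part of HIF1A, differed without passing the threshold over the 8 arrays as deposited. It had log2 values of 6.97, 7.03 and 7.23 in the controls, 6.55, 6.67 and 6.16 in the low group and 6.44 and 5.84 in the high group. All treated arrays lay below the controls, with differences of -0.62 ± 0.20 (limma adjusted p = 0.155) and -0.94 ± 0.22 (adjusted p = 0.0930). It was called lower in the high group with quantile normalization, with array weights and with the replicate block. HIF1A lay between 9.60 and 9.85 on all arrays, with differences of 0.07 and -0.03. The log ratio did not pass in either group (adjusted p = 0.164 and 0.186).

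Of 71 well-studied antisense and related transcripts drawn up from general knowledge, 52 were measured and 17 belonged to the 119. In the low group IL6-AS1 rose, TMPO-AS1 and PCNA-AS1 fell, and 14 were not called; in the high group TMPO-AS1 and PCNA-AS1 fell and 15 were not called. Of all genes, 3.00% were called in the low group and 0.814% in the high group. For genes with a mean of 3 or more these shares were 6.08% and 1.59%. IL6-AS1, with a control mean of 2.66, is among the 17 only through the treated arrays. These counts were not tested. Those not called include transcripts often described in tumours. AFAP1-AS1 had low- and high-group differences of -0.55 and -0.37, FGD5-AS1 -0.39 and -0.29, VIM-AS1 -0.31 and -0.35, LOXL1-AS1 -0.37 and -0.26, and SBF2-AS1 -0.07 and 0.12. TTN-AS1 had -0.19 and 0.18, THUMPD3-AS1 -0.02 and 0.01, PSMD6-AS2 0.72 and 0.35, NUTM2A-AS1 0.27 and 0.22, and PAXIP1-AS2 -0.02 and 0.15.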

How the data were processed

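Log2 expression values of 53617 probe sets on 8 arrays were used as deposited. The submitters' processing notes name the Transcriptome Analysis Console; how it summarized and normalized the probes is not stated in the labels, and the log base was read from the range of the values. The platform annotation gave 23558 rows 1 symbol, 2155 several and 27904 none; 22271 matched a RefSeq gene by Entrez identifier and 3 symbols were updated. The row with the highest mean was kept per gene, which left 22109 genes; 6 of the 119 antisense transcripts had several rows.

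Group means of all 8 arrays were compared in limma 3.58.1 (R 4.3.3; lmFit, contrasts, eBayes), with 5 residual and 6 prior degrees of freedom, and p-values were adjusted over all 22109 genes (Benjamini-Hochberg), called under 0.05. The same fit on antisense minus sense values was adjusted over 677 pairs. Number of arrays limits the precision. Promoter sequences, starts and positions are RefSeq's (GRCh38.p14); 101 of 119 had an entry. Deviations from the group means correlated at 0.103, 0.153 and 0.203 for same-numbered control and low arrays. Control 1 with low 2 gave 0.122 and control 2 with low 1 gave 0.0655, so a pairing by number was not settled. The labels do not state one. Replicate numbers entered only the block settings and not the main fit. For the high arrays the same-numbered correlations ran from -0.177 to 0.215.

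The antisense transcripts, lists and rules were chosen with earlier results of these data known, and the role groups after the values were seen. Named were called transcripts with their partners, pairs with a called partner or ratio, the 6 highest means, 3 on each side of the threshold, and the well-studied list; names beyond it were chosen after their values were seen. Alternatives were other normalizations, filters, variance models, weights, a replicate block and arrays left out.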

Additional observations from a re-analysis of the deposited data

How the results depend on the processing

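The count of antisense transcripts called in the low group (5) became 11 with quantile normalization, 8 when genes with a mean under 3 were left out, 22 with array weights, 8 with the replicate block and 12 without control 3, low 3 and high 2; over single arrays left out it ran from 3 to 6. The high-group count (4) became 9 with array weights, 11 with the replicate block, 13 without those 3 arrays, which leaves the high group 1 array whose spread is taken from the other groups, and 0 with only the groups compared and 0 with adjustment over all rows; over single arrays left out it ran from 0 to 8. Shares of all genes called in these settings are not given here. A larger count in a setting is therefore not evidence of a change particular to the antisense transcripts. High against low gave 0 in every setting run. NPPA-AS1, PCNA-AS1 and TMPO-AS1 kept their low-group call in all 19 settings, TLR8-AS1 in 18 and IL6-AS1 in 16. High-group calls were lost in 7 to 11 of 18 settings and no called difference or called log ratio followed over the settings changed sign.

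The count of called log ratios in the low group (9) became 27 with quantile normalization, 33 with array weights, 14 with the replicate block, 25 with the block over control and low arrays, and 19 without control 3, low 3 and high 2; over single arrays left out it ran from 1 to 9. In the high group (0) it became 5 with quantile normalization and 29 without those 3 arrays, again from a high group of 1 array. The replicate block took no call away from the antisense transcripts named. It paired the high arrays by number too, which the data did not bear out, and for the control and low arrays a pairing was not settled. A threshold of 4 on the mean would keep 32 antisense transcripts, one of 2.5 would keep 198, and 94 have every group mean at 3 or more. The correlation of antisense and sense differences in head-to-head pairs ran from 0.72 to 0.81 in the low group and from 0.31 to 0.63 in the high group. That of pairs with an inside start ran from 0.61 to 0.81 in the low group and from 0.16 to 0.53 in the high group. That of pairs with an outside start ran from -0.23 to 0.16 and from -0.09 to 0.23, through a change of sign in both groups. The cause of these shifts was not tested.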

Other observations

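Among antisense genes with a mean under 3, whose levels lie close to the lowest of the array, 6 pairs had a called log ratio in the low group, and in 5 of them the sense gene carried the larger difference. KIF23, a kinesin of cytokinesis, fell by 1.31 ± 0.20 (limma adjusted p = 0.00668) beside 0.10 for KIF23-AS1. KLF3, a zinc finger repressor, rose by 1.04 ± 0.15 (adjusted p = 0.00522) beside a difference of -0.16 for KLF3-AS1. BHLHE40, a circadian and stress-responsive repressor, rose by 1.37 ± 0.20 (adjusted p = 0.00476) beside 0.20 for BHLHE40-AS1, and JARID2, a partner of the Polycomb complex, rose by 1.55 ± 0.27 (adjusted p = 0.0111) beside 0.03 for JARID2-AS1. OSGEPL1, a mitochondrial tRNA-modifying enzyme, differed by -0.65 (adjusted p = 0.0668). In the sixth pair the antisense carried the difference: IGFL2-AS1 had 2.05, 1.63 and 1.18 in the controls, 2.90, 3.18 and 2.23 in the low group and 1.05 and 1.66 in the high group, a low-group difference of 1.15 ± 0.28 that did not pass alone (adjusted p = 0.0591), while IGFL2 differed by 0.01.

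Other non-coding groups gave the following counts. Of 63 intergenic (LINC) genes with a mean of 3 or more, 1 rose and 1 fell in the low group and 2 fell in the high group. This is 3.17% in each group, beside 6.08% and 1.59% of genes with a mean of 3 or more. The divergent (-DT) and intronic (-IT1) sets were not cut by their mean, so their counts cannot be compared with those of the LINC genes. Of 128 divergent transcripts 1 fell in each group (0.781%), beside 3.00% and 0.814% of all genes called. Of 63 intronic transcripts none was called by limma. At an unadjusted p under 0.05, 1 was higher and 1 lower in the low group, beside 5.38% and 8.77% of all genes. In the high group none was higher and 9 (14.3%) were lower, beside 11.4% of all genes lower there. Of the 620 antisense genes under the threshold, 1 fell in the low group and none was called in the high group. At an unadjusted p under 0.05, 13 (2.10%) were higher and 12 (1.94%) lower in the low group, beside 5.38% and 8.77% of all genes. In the high group 12 (1.94%) were higher and 24 (3.87%) lower, beside 3.03% and 11.4%. All genes include the 10268 with a mean of 3 or more. Of these, 9.34% and 15.4% passed in the low group and 4.54% and 19.2% in the high group. Shares of the other genes with a mean under 3 were not computed, so a weaker response of antisense genes cannot be read from this.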
